A study of Mus musculus with 8 samples.

Results

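The data cover glucose uptake and glycolytic enzymes in RAW264.7 cells, a mouse macrophage line of Balb/c origin. The 10 genes considered are the glucose transporter gene Slc2a1, the hexokinase genes Hk2 and Hk3, the phosphofructokinase genes Pfkl and Pfkp, and Aldoa, Tpi1, Pgk1, Pgam1 and Ldha of the later steps. They were chosen by gene name, with earlier results of these data known. All 14 probes that carry 1 of these names among the 25697 probes of the array were taken. These 14 probes belong to 9 genes. No probe in the table used carries the name Hk2, and Hk2 was not analysed here. Of the 14 probes 13 were detected on at least 4 of the 8 arrays, and each of the 9 genes kept at least 1 probe.

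Cells had been transfected with HiPerfect 24 h before RNA extraction, in 1 group with the Ypel5-specific siRNA SASI_Mm01_00066332 and in the other with the scrambled siRNA SIC001. Biotin-labelled cRNA of each group was read on 4 Illumina bead arrays. All cells were RAW264.7 cells grown in DMEM with serum, and the labels do not state the glucose content of the medium. A single siRNA sequence was used against Ypel5, so that effects of lower Ypel5 and of this sequence on other transcripts cannot be told apart. The arrays of a group carry replicate numbers, but nothing in the labels ties them to separate cultures. The p-values therefore cover the spread between these arrays, possibly of technical origin. The labels also conflict, since the source names give several arrays of a group the same number and the descriptions number each array separately. The numbers of the descriptions are used here.

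Ypel5 itself was detected on 0 of the 8 arrays, so the arrays could not show whether its mRNA was lower. An array detected between 11249 and 11612 probes, and precision is limited by having 4 arrays a group. Median intensities averaged 209.5 ± 14.6 in the Ypel5 siRNA group and 189.2 ± 6.26 in the scrambled group (SD, n = 4 each), with p = 0.0857 by a two-sided exact permutation test that cannot go below 0.0286. The arrays numbered 1 in both groups have detection p-values with 101 levels, against between 749 and 762 on the other arrays, and results that change without this pair are given below. Of 11 macrophage markers with a probe, 9 were detected on all 8 arrays, among them Adgre1, Csf1r, Cd68, Lyz2 and Spi1, whereas Fcer1g was detected on 0. Of 33 markers of other cell types with a probe, 28 were detected on 0 arrays and Lck, a kinase of lymphocytes, on all 8.

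Glycolysis splits glucose into pyruvate in the cytosol and yields ATP without oxygen. Glucose enters the cell through facilitative transporters such as GLUT1, is trapped by hexokinase as glucose 6-phosphate, and is committed to the pathway by phosphofructokinase, while the later enzymes work near equilibrium until pyruvate kinase. Macrophages are known to raise glucose uptake and lactate output when activated by microbial products, in part through the hypoxia-inducible factor HIF-1, which binds the core letters ACGTG or GCGTG in promoters of several of these genes.

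The 250 bases before the transcription start are shown for the 3 genes that rose after the Ypel5 siRNA and, for comparison, for the more upstream start of Ldha, a textbook target of HIF-1 whose arrays did not pass the test. The sequences are those of RefSeq on GRCm38.p6, 5′ to 3′ on the strand of the gene, and capitals mark ACGTG and GCGTG on either strand. The palindrome CACGTG, the E-box, holds ACGTG on both strands.
Slc2a1 (chr4:119108495-119108744, plus strand): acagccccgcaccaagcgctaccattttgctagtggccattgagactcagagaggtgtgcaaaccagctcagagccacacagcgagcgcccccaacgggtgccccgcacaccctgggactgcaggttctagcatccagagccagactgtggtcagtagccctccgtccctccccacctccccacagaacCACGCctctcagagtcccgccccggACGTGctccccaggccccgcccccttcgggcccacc
Hk3 (chr13:55021386-55021635, minus strand): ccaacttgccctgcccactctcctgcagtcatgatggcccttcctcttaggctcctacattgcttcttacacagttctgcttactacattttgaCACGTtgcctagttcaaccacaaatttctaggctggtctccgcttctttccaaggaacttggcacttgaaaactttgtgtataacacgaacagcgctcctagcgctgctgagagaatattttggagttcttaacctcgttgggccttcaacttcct
Pfkl (chr10:78009808-78010057, minus strand): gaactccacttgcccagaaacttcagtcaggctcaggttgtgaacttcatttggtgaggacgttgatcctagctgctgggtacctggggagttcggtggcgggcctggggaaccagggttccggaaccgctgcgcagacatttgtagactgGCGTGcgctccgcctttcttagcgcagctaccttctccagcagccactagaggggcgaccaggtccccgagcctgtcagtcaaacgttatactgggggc
Ldha (chr7:46845554-46845803, plus strand): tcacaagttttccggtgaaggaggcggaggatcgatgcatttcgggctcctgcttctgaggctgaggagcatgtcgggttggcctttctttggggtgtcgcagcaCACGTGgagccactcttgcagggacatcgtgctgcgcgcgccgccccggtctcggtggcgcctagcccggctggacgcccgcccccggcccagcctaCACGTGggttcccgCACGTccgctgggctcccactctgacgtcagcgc

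All 10 genes were found in the promoter table, with 13 windows in all. The Slc2a1 window holds 2 cores, 61 and 36 bases before the start, and the Hk3 and Pfkl windows hold 1 each, 156 and 99 bases before it. The Ldha window holds 5 when each of its 2 E-boxes is counted on both strands, with 1 core lying outside them. At least 1 core lay in a window of 9 of the 10 genes, Tpi1 being the exception. It lay in 11 of the 13 windows (84.6%), against 12679 of 32851 windows in the whole table (38.6%). Of the 13 windows 2 of Aldoa overlap and share 1 core site, which is counted in both. The 13 windows and the whole table were not matched for base composition. A match is a description of letters and not a binding site. Windows with a core belonged to genes that rose and to genes that did not pass the test alike.

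Transcripts of a glucose transporter, a hexokinase and a phosphofructokinase subunit, which act at the entry of glucose and its commitment to glycolysis, were higher after the Ypel5 siRNA. Of the 9 genes tested, 3 rose, 0 fell and 6 did not pass a limma adjusted p of 0.05, against 2.96% of the 8145 genes tested that rose and 2% that fell (4.96% called in all). The 9 genes were chosen with earlier results of these data known, so these shares describe them and do not test the set. The genes that rose were Slc2a1, Hk3 and Pfkl, by 1.30-fold, 1.36-fold and 1.16-fold. The call of Pfkl was lost when any 1 of the 8 arrays was left out. Among other tested genes of the same steps, Slc2a6 also rose, whereas Slc2a3, Slc2a8, Slc2a9, Hk1, Pfkm and Pfkp did not pass. The median log2 difference was 0.05 over the 9 genes and 0.00083 over all genes tested, and 8 of the 9 genes lay above 0, as did 50.2% of all genes.

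Slc2a1 encodes GLUT1, the transporter that carries glucose into most cells at rest and after activation. Its normalized log2 intensity was 12.79, 12.78, 12.81 and 12.70 on the Ypel5 siRNA arrays, against 12.34, 12.36, 12.51 and 12.37 on the scrambled arrays. All 4 Ypel5 siRNA arrays lay above all 4 scrambled arrays. Such separation, without overlap, was seen for 3 of the 9 genes, all of them higher after the Ypel5 siRNA, against 7.92% of all genes that were higher, 7.31% that were lower and 15.2% in all. The mean was 12.77 ± 0.050 in the Ypel5 siRNA group and 12.39 ± 0.076 in the scrambled group (SD, n = 4 each), a log2 difference of 0.38 (SE 0.054, limma adjusted p = 0.00888, 95% interval 0.26 to 0.50). Before normalization the intensities were 8645, 7284, 6827 and 7270 in the Ypel5 siRNA group and 5214, 5252, 5207 and 5222 in the scrambled group, a ratio of means of 1.44. Without both arrays numbered 1 the log2 difference was 0.35 and no longer passed (adjusted p = 0.0826, n = 3 each). It passed whichever single array was left out, with limma adjusted p between 0.0115 and 0.0315.

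Hk3 encodes a hexokinase found mainly in myeloid cells, which phosphorylates glucose in the first step of glycolysis. Its normalized log2 intensity was 9.92, 10.07, 9.91 and 10.01 on the Ypel5 siRNA arrays, against 9.54, 9.51, 9.54 and 9.54 on the scrambled arrays. The groups did not overlap, and the scrambled arrays differed by 0.033 at most. The Ypel5 siRNA group averaged 9.98 ± 0.078 and the scrambled group 9.54 ± 0.016 (SD, n = 4 each), a log2 difference of 0.44 (SE 0.051, limma adjusted p = 0.00419, 95% interval 0.33 to 0.56). Intensities before normalization were 1387, 1270, 1066 and 1335 in the Ypel5 siRNA group, against 852, 847, 782 and 866 in the scrambled group. Hk3 had the largest difference of the 9 genes. It was past the threshold under all 21 alternative settings, with log2 differences between 0.37 and 0.51, and it was the 1 gene of the 9 still past it without both arrays numbered 1.

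Pfkl encodes the liver-type subunit of phosphofructokinase, the enzyme of the main committed step. The probe that stands for it, ILMN_1236539, read 12.97, 12.96, 13.03 and 13.06 on the Ypel5 siRNA arrays and 12.82, 12.78, 12.79 and 12.78 on the scrambled arrays. These groups did not overlap either. The Ypel5 siRNA mean was 13.01 ± 0.048 and the scrambled mean 12.80 ± 0.019 (SD, n = 4 each), a log2 difference of 0.21 (SE 0.044, limma adjusted p = 0.0344). The call of Pfkl was lost when any 1 of the 8 arrays was left out (adjusted p between 0.0626 and 0.083), although the difference stayed between 0.19 and 0.23. In the fit over 11364 probes 3 of the 13 kept probes passed, 1 each of Slc2a1, Hk3 and Pfkl, all higher, against 2.25% of all probes that were higher and 3.7% called in all. The dimmer Pfkl probe ILMN_2871325 had a difference of log2 0.20, close to that of the brighter probe, but with a wide spread (SE 0.14) and overlapping groups.

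**Figure D1:**
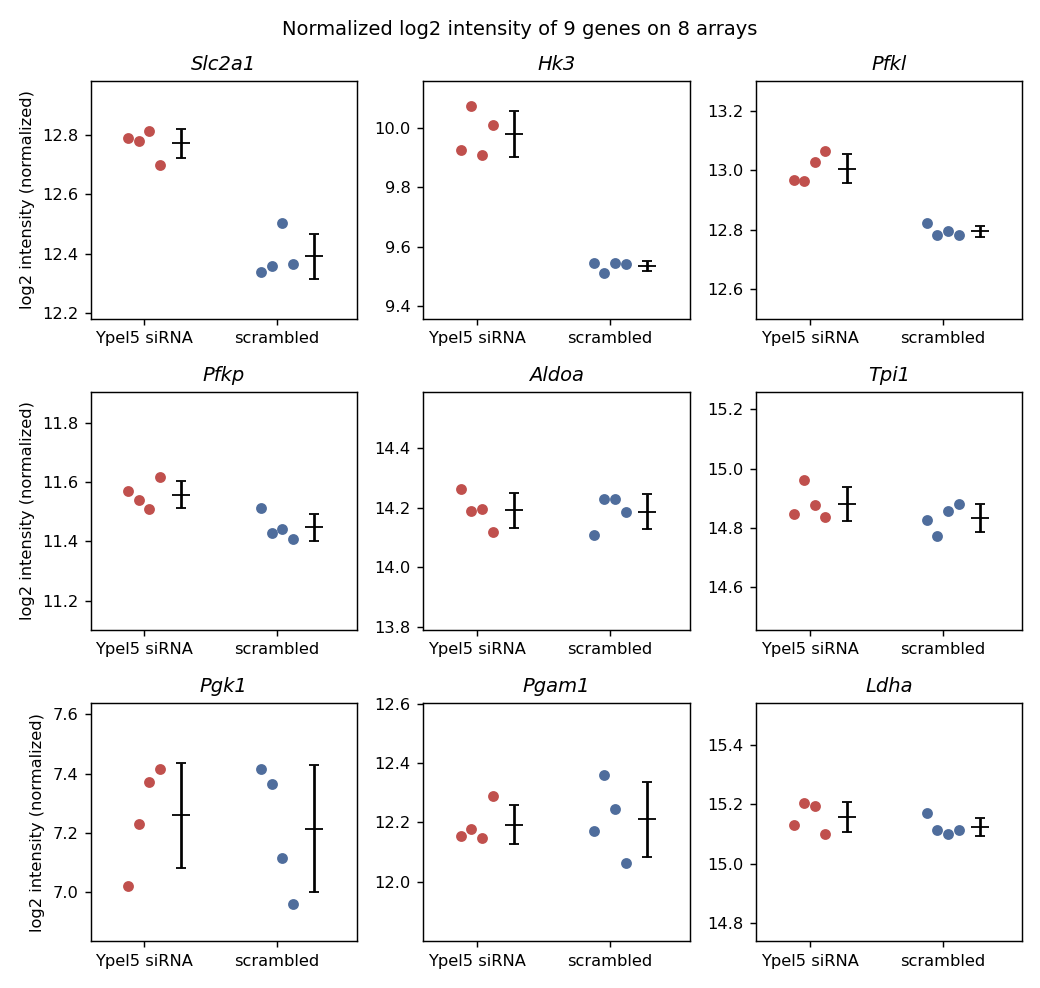
Normalized log2 intensity (vertical axes, each spanning 0.8) of the 9 genes on each array, 4 Ypel5 siRNA arrays (red) left of 4 scrambled arrays (blue), with the mean and SD as black bars. The groups are apart for Slc2a1, Hk3 and Pfkl and overlap for the 6 other genes.

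Pfkp encodes the platelet-type phosphofructokinase subunit. Its brightest probe, ILMN_1237695, read 11.57, 11.54, 11.51 and 11.62 on the Ypel5 siRNA arrays, against 11.51, 11.43, 11.44 and 11.41 on the scrambled arrays. Of the 4 Ypel5 siRNA arrays 3 lay above all scrambled arrays, and the highest scrambled array was the 1 numbered 1. The log2 difference of 0.11 (SE 0.047, 95% interval 0.0028 to 0.22) had an unadjusted p of 0.0455 and a limma adjusted p of 0.222. A second probe, ILMN_2673233, gave log2 0.04 (SE 0.071) with overlapping groups. The third, ILMN_2807702, was detected on 0 of the 8 arrays, so no fold is given for it.

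The enzymes of the later steps did not pass the test. Aldoa encodes aldolase A, which splits fructose 1,6-bisphosphate. It read 14.26, 14.19, 14.20 and 14.12 on the Ypel5 siRNA arrays and 14.11, 14.23, 14.23 and 14.18 on the scrambled arrays. The log2 difference was 0.0041 (SE 0.052, limma adjusted p = 0.975), with a 95% interval of -0.11 to 0.12. The groups overlapped almost wholly.

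Tpi1 encodes triosephosphate isomerase, which interconverts the products of aldolase, and was read by 3 probes. The brightest, ILMN_1230137, had values of 14.85, 14.96, 14.88 and 14.84 on the Ypel5 siRNA arrays and 14.83, 14.77, 14.86 and 14.88 on the scrambled arrays, a log2 difference of 0.05 (SE 0.049, limma adjusted p = 0.653). Probe ILMN_1231447 gave log2 0.05 (SE 0.079). Probe ILMN_2932359 gave 14.24, 14.40, 14.26 and 14.33 on the Ypel5 siRNA arrays, all higher than the 14.15, 14.05, 14.18 and 14.22 of the scrambled arrays. Its log2 difference of 0.16 (SE 0.060) had an unadjusted p of 0.0315 and a limma adjusted p of 0.204 over the 11364 probes tested. All 3 Tpi1 probes had a difference above 0, as did 50.2% of all genes. The groups of 1 of them did not overlap, against 7.92% of all genes that were higher without overlap. These shares are by gene and were not computed by probe.

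Pgk1 encodes phosphoglycerate kinase, the first ATP-yielding enzyme of the pathway, and its probe was the least precise of those that stand for a gene. The probe was dim, with mean intensities of 339 (Ypel5 siRNA) and 294 (scrambled), where array medians averaged 209.5 and 189.2. It ranked between 8092 and 8798 by brightness over the arrays. It read 7.02, 7.23, 7.37 and 7.41 on the Ypel5 siRNA arrays and 7.42, 7.36, 7.12 and 6.96 on the scrambled arrays. The log2 difference of 0.05 (SE 0.12, limma adjusted p = 0.875) had a 95% interval of -0.24 to 0.33, the widest of the 9 genes. Pgam1 encodes phosphoglycerate mutase and read 12.15, 12.18, 12.15 and 12.29 on the Ypel5 siRNA arrays, against 12.17, 12.36, 12.24 and 12.06 on the scrambled arrays. Its log2 difference of -0.02 (SE 0.071, limma adjusted p = 0.924) was the only 1 below 0.

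Ldha encodes the lactate dehydrogenase subunit that favours the reduction of pyruvate to lactate. It read 15.13, 15.20, 15.20 and 15.10 on the Ypel5 siRNA arrays and 15.17, 15.11, 15.10 and 15.11 on the scrambled arrays. The log2 difference was 0.03 (SE 0.046, limma adjusted p = 0.737), with a 95% interval of -0.07 to 0.14. The intervals of Aldoa, Tpi1 and Ldha therefore lie below the differences measured for Slc2a1 and Hk3, although the contrast between genes was not tested. The probes of Ldha, Aldoa and the brightest of Tpi1 were among the 195 brightest of the array on all 8 arrays, whereas the Hk3 probe ranked between 3857 and 4765, and the part of probe brightness in these differences was not tested. Probe sequences are not used here, so that signal from processed pseudogenes and related genes cannot be told apart from that of the named gene.

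**Figure D2:**
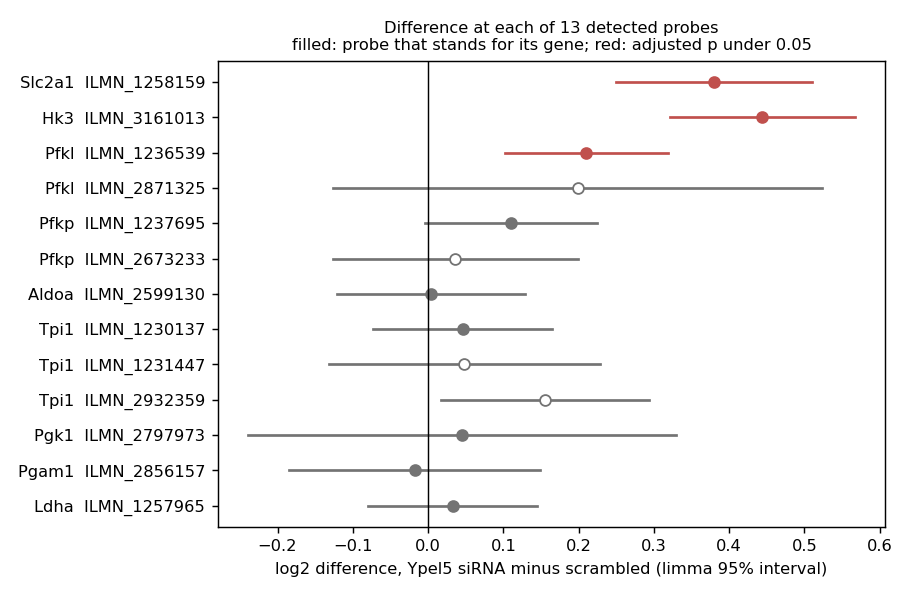
Log2 difference (Ypel5 siRNA minus scrambled) with its limma 95% interval at the 13 detected probes, on the horizontal axis, fitted over 11364 probes. The probes of Slc2a1, Hk3 and the brighter probe of Pfkl pass the threshold, and all but the Pgam1 probe have a difference above 0.

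Of 33 other listed genes of glucose transport, glycolysis and lactate export, 13 were tested. Of these 2 rose, 0 fell and 11 did not pass, against 2.96% of all genes tested that rose and 2% that fell. The genes that rose were Slc2a6, a transporter gene of the same family as Slc2a1 that is known to be induced in activated macrophages, and Slc16a3, which encodes the lactate exporter MCT4. Slc2a6 averaged 11.68 ± 0.047 in the Ypel5 siRNA group and 11.39 ± 0.065 in the scrambled group (SD, n = 4 each), a log2 difference of 0.29 (limma adjusted p = 0.0187), and it passed in 6 of the 8 fits that left out 1 array. Slc16a3 averaged 8.10 ± 0.042 in the Ypel5 siRNA group and 7.86 ± 0.079 in the scrambled group (SD, n = 4 each), a log2 difference of 0.24 (limma adjusted p = 0.0437), and it passed in 0 of those 8. The dimmer Slc16a3 probe gave log2 0.05 (SE 0.18). The GLUT3 gene Slc2a3 was at log2 -0.16 (SE 0.049, limma adjusted p = 0.101), with groups that did not overlap, as for 15.2% of all genes.

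Values for the other isoforms that did not pass were log2 0.25 (limma adjusted p = 0.163) for the hexokinase gene Hk1, 0.08 (0.677) for the muscle-type phosphofructokinase gene Pfkm and 0.24 (0.0628) for the aldolase C gene Aldoc. The groups of Hk1 and Aldoc did not overlap, both higher after the Ypel5 siRNA, as for 7.92% of all genes. Those of Pfkm overlapped. The abundant enzymes Gapdh, Eno1 and Pkm, at log2 0.0097, -0.02 and -0.02, had limma adjusted p between 0.868 and 0.940 and 95% intervals between -0.11 and 0.12. With arrays brought only to a common median, Gapdh was on the other side of 0 at log2 -0.13, and Eno1 and Pkm were at log2 -0.17 and -0.16. Slc2a2, Slc2a4 and Pklr, forms known mainly from other tissues such as liver and muscle, were detected on 0 arrays. No probe is listed under Gpi1, which was not analysed here.

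**Figure D3:**
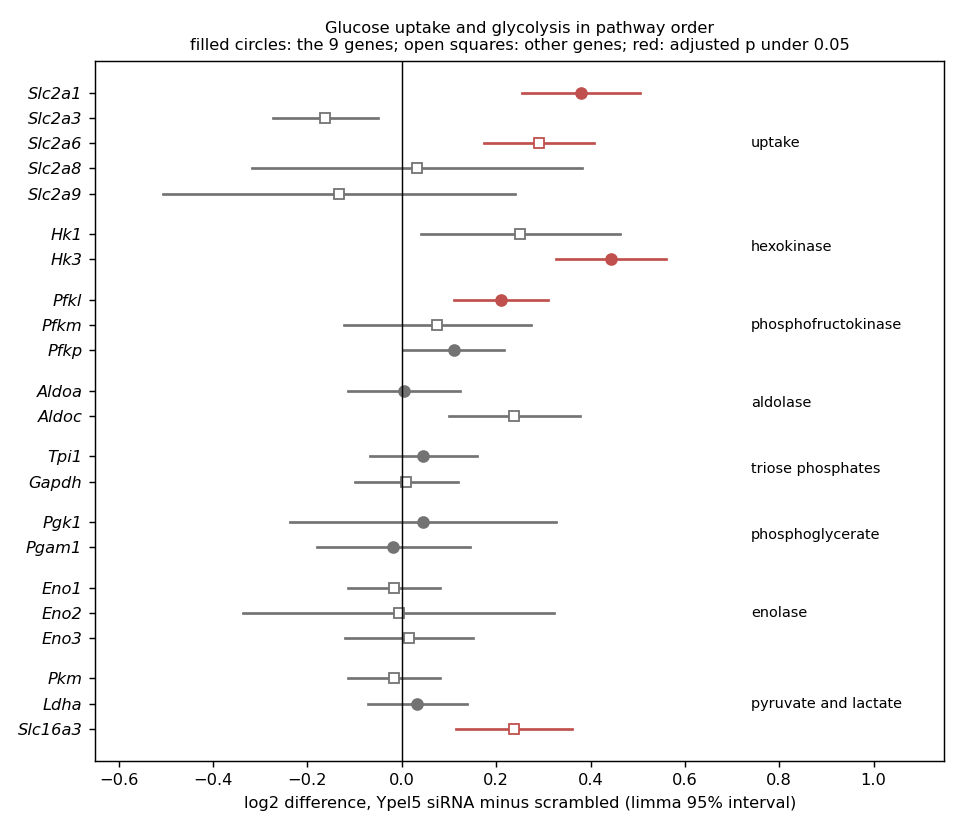
Log2 difference (Ypel5 siRNA minus scrambled, horizontal axis) with its limma 95% interval for 22 tested genes in pathway order from glucose uptake to lactate export. Filled circles are the 9 genes chosen by name and open squares other genes. Red marks an adjusted p under 0.05, reached by Slc2a1, Slc2a6, Hk3, Pfkl and Slc16a3.

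The 18 tested regulators of glycolysis had a median log2 difference of 0.14. Of them 2 rose and 0 fell, against 2.96% and 2% of all genes tested. Both genes that rose encode alpha-arrestins that are known to be induced by glucose and to limit its uptake. Arrdc4 averaged 9.55 ± 0.11 in the Ypel5 siRNA group and 9.06 ± 0.035 in the scrambled group (SD, n = 4 each), a log2 difference of 0.49 (SE 0.061, limma adjusted p = 0.00539), and passed under all 21 alternatives. Txnip averaged 11.37 ± 0.027 in the Ypel5 siRNA group and 11.14 ± 0.063 in the scrambled group (SD, n = 4 each), a log2 difference of 0.22 (SE 0.048, limma adjusted p = 0.0369), and passed in 0 of the 8 fits that left out 1 array. Hif1a was at log2 0.17 (SE 0.13, limma adjusted p = 0.509) and Pdk1, the kinase that restrains pyruvate dehydrogenase, at log2 0.14 (SE 0.059, limma adjusted p = 0.232). Pfkfb3 was detected on 0 arrays and Myc on 1.

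In the routes that branch from glycolysis, 0 of 9 tested pentose phosphate genes passed, against 4.96% of all genes called in either direction. Of 6 tested glycogen and gluconeogenesis genes 1 rose, against 2.96% of all genes tested. The gene that rose was Pgm2, a phosphoglucomutase gene, with 10.95 ± 0.092 in the Ypel5 siRNA group and 10.45 ± 0.11 in the scrambled group (SD, n = 4 each), a log2 difference of 0.51 (SE 0.072, limma adjusted p = 0.00874), and it passed under 20 of 21 alternatives. Pgd, which encodes phosphogluconate dehydrogenase of the oxidative branch, had the smallest p of the pentose phosphate genes (log2 0.15, limma adjusted p = 0.0964), and 8 of the 9 lay above 0. The genes of pyruvate entry and the citric acid cycle lay mostly on the other side of 0, with 16 of 22 tested below it. Their median was log2 -0.07, and of all genes tested 50.2% lay above 0. Past the threshold 1 of the 22 was lower and 0 higher, against 2% and 2.96% of all genes tested. The gene that fell was Idh3a, the catalytic subunit of the NAD-dependent isocitrate dehydrogenase, with 9.75 ± 0.093 in the Ypel5 siRNA group and 10.05 ± 0.027 in the scrambled group (SD, n = 4 each), a log2 difference of -0.29 (SE 0.056, limma adjusted p = 0.0254). Idh3a passed in 2 of the 8 fits that left out 1 array. Mdh2 was at log2 -0.23 (limma adjusted p = 0.0986). The list also holds the cytosolic forms Mdh1, at log2 -0.21 (limma adjusted p = 0.172), and Idh1, at log2 0.15 (limma adjusted p = 0.223).

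The 14 tested hypoxia response genes outside glycolysis had a median log2 difference of 0.11. Of them 3 rose and 0 fell, against 2.96% and 2% of all genes tested. This list too was chosen with earlier results of these data known. The genes that rose were Ndrg1 (log2 0.61, limma adjusted p = 0.00336), Hmox1, which NRF2 also drives (log2 0.49, limma adjusted p = 0.0271), and Ankrd37 (log2 0.40, limma adjusted p = 0.0294). Ndrg1 passed in all 8 fits that left out 1 array, Hmox1 in 2 and Ankrd37 in 1. The 3 genes of the whole table whose array values lay nearest to those of Slc2a1, each gene centred on its own mean, were Ms4a6d, Tlr1 and Blvrb, with root mean square differences of 0.058, 0.059 and 0.060 log2 over 8 arrays. Among the 9 genes the nearest was Hk3, at 0.087. Centring on the mean of all 8 arrays keeps the group difference, so a similar difference alone can bring genes near. Ms4a6d, Tlr1 and Blvrb had log2 differences of 0.38, 0.39 and 0.33, against 0.38 for Slc2a1. Likeness within the groups was not tested.

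The differences of Slc2a1, Hk3, Pfkl and Pfkp stayed above 0 under all 21 alternative settings. Those of Aldoa, Tpi1, Pgk1, Pgam1 and Ldha lay on either side of 0 depending on the setting. Settings that change only the filter, the variance model or the block by description leave these differences as they were, so they do not test the sign. The deposited log2 values gave nearly the same differences as quantile normalization without background correction. When arrays were only brought to a common median after background correction, the median of all genes moved to log2 0.04, and Aldoa, Tpi1 and Ldha were at log2 -0.09, -0.08 and -0.10 while Slc2a1 and Hk3 were at log2 0.36 and 0.51.

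**Figure D4:**
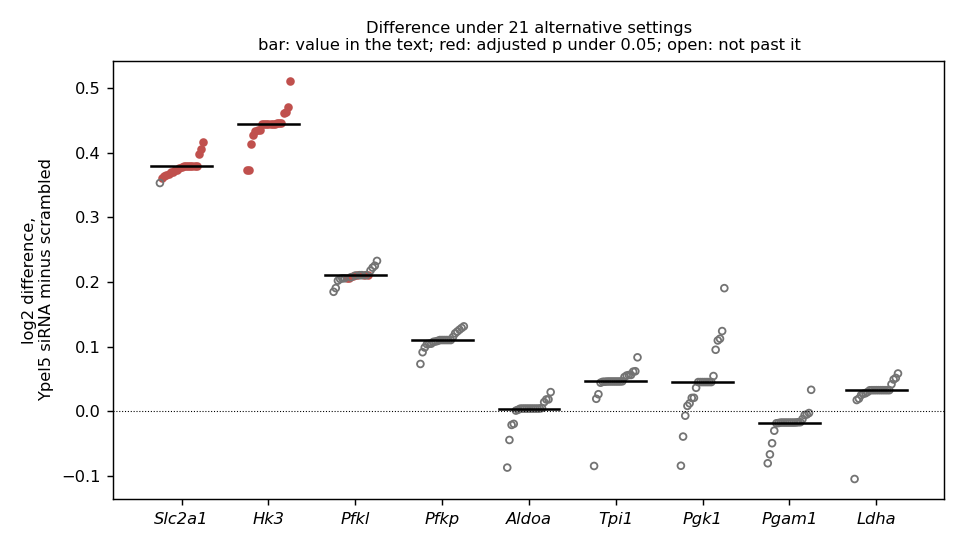
Log2 difference (Ypel5 siRNA minus scrambled, vertical axis) of the 9 genes under 21 alternative settings (points) beside the value given in the text (black bar). Red points have an adjusted p under 0.05 and open points do not. Hk3 is red throughout, Slc2a1 in 20 and Pfkl in 6 of 21 settings.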

How the data were processed

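Per the labels' protocols, total RNA taken 24 h after transfection was copied into biotinylated cRNA for Illumina bead arrays. Per the file headers, the deposited table holds, for each probe and array, a linear intensity beside its detection p-value. The deposited log2 values, normalized by the authors, were used as an alternative, and the submitters' processing notes name RMA.

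Background correction and quantile normalization of the intensities used neqc (limma 3.58.1, R 4.3.3, offset 16). A probe was kept where at least 4 arrays gave a detection p under 0.05, which left 11364, and the kept probe with the highest mean stood for its gene, which gave 8145 genes. Groups were compared by limma (lmFit and eBayes, two-sided; threshold 0.05 after Benjamini-Hochberg adjustment over all genes), without a replicate block. The difference between groups at each probe was fitted over all kept probes, and probes of 1 gene were not tested against each other. Members, gene lists and tests were chosen with earlier results of these data known. The rule names all 10 genes, every list gene past the threshold, up to 4 per list with the smallest p, and a fixed set of isoforms and regulators. Gene names were updated through a RefSeq table, and promoter sequences came from RefSeq (GRCm38.p6).

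The replicate numbers were checked as pairs. The correlation of deviations from the group means between arrays of the same number was 0.038, -0.0034, -0.00077 and 0.18, so the arrays were not treated as paired. Alternatives changed the block, the background correction, the offset, the normalization, the filter, the choice of probe, the variance model and the arrays included.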

Additional observations from a re-analysis of the deposited data

Results flagged for a closer look

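Chance sets about 1 in 20 groups of 4 arrays apart in this way, and 4 of the 28 groups of the 14 probes had such an array. For Slc2a1 the array scrambled 3 read 12.51, against 12.34 to 12.37 on the other scrambled arrays, and still lay below every Ypel5 siRNA array. Before normalization the same array read 5207, the lowest of the scrambled arrays, so it stood apart only after normalization. For Hk3 scrambled 2 read 9.51, against 9.54 on the other 3, although the range over the scrambled arrays was only 0.033 log2. For the Pfkp probe ILMN_2673233 the array Ypel5 siRNA 3 read 10.13, against 10.32 to 10.35 on the others of its group. For the Tpi1 probe ILMN_1231447 the array scrambled 1 read 9.12, against 8.91 to 8.94.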

How the results depend on the processing

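The 404 genes past the threshold became 671 without background correction and 671 with the log2 values deposited by the authors, 774 with a trended and robust variance, 261 with probes detected on at least 1 array, 144 without a filter, 235 with only a common median per array and 75 without both arrays numbered 1. The share of called genes that were higher was 87.2% with the common median, against 59.7% in the text. With the replicate number as a block, 107 genes passed by the number in the description and 140 by the number in the source name. The block by source name is unbalanced and partly confounded with group. Only for number 4 did both arrays correlate best with each other, a hint from the data and not from the design. Leaving out 1 array gave between 187 and 269 genes. Of the 9 genes, 3 rose in the fit used for the text, 2 rose in every fit that left out 1 array, and 1 rose without both arrays numbered 1. None fell under any alternative.

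Hk3 passed in 21 of 21 alternatives, Slc2a1 in 20 and Pfkl in 6, and with either replicate block Pfkl did not pass (adjusted p = 0.111 and 0.123). The other 6 genes passed in 0. Differences of the opposite sign to those in the text were seen with the common median for Aldoa (log2 -0.087), Tpi1 (-0.085) and Ldha (-0.10). Without both arrays numbered 1 Aldoa was at log2 -0.044, and with the block by source name Pgk1 was at log2 -0.084. Leaving out 1 array put Aldoa between log2 -0.021 and 0.030, Pgk1 between -0.039 and 0.12 and Pgam1 between -0.067 and 0.033. The cause was not tested.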
